A study of Zea mays with 9 samples.

Results

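A set of 110 maize genes whose transcript level was more than 2-fold lower after nitrate than under nitrogen deprivation, while the level after ammonium stayed close to the deprived one, was described from the RPKM values of B73 root apexes. RPKM are read numbers scaled to transcript length and sequencing depth, so that levels can be compared between genes. A gene could enter when its identifier began with Zm00001d, all of its 3 values were above 0 and the highest was at least 5 RPKM, which held for 15927 of the 43484 such genes in the table. It was taken as a member when log2(nitrate / -N) was below -1 and log2(ammonium / -N) lay within 0.58 of 0, a band of 1.49-fold either way. These limits were met by 112 genes (0.703%). An ammonium transporter (Zm00001d034782) and a potassium transporter (Zm00001d003861) among them were left out by the rule, which gave 110 members.

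B73 is the inbred line of the maize reference genome. Seedlings germinated for 3 days were kept without nitrogen for 24 h and then moved for another 24 h to a complete solution with 1 mM KNO3 (nitrate), to one with 1 mM NH4Cl (ammonium), or to a solution without nitrogen (-N). All groups therefore shared the earlier deprivation, and the accompanying ion differed between both nitrogen sources. Polyadenylated RNA of primary root apexes from 3 pools of seedlings per condition, 9 libraries in all, was sequenced. The table holds a single RPKM per gene and condition, estimated by the authors over the 3 replicates. The deposited table holds no replicate value, count or read depth, so that neither a spread nor a significance is given here. The study itself tested nitrate and ammonium against -N over the replicates, and those calls were not used to choose the members. The words higher and lower refer to the authors' value alone, and the members, chosen by these same ratios, are described and not tested.

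Root cells reduce nitrate to nitrite and then to ammonium before its nitrogen enters amino acids, whereas ammonium can be assimilated directly. Nitrate itself is sensed, and many genes respond to it without its reduction. Roots short of nitrogen keep high-affinity uptake systems active and often accumulate phenylpropanoids and flavonoids, phenolic compounds made from phenylalanine.

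Among all genes that could enter, 235 (1.48%) lay below -1 in the nitrate comparison. Of these, 112 stayed within 0.58 after ammonium, 74 were also lower after ammonium and 49 were higher after it. Over all 15927 genes, 73.7% stayed within 0.58 after ammonium, 9.66% were lower and 16.7% were higher. Genes below -1 after nitrate were thus less often within the band than genes in general. They were more often outside it on both sides, chiefly on the lower one. Both ratios share the -N value, which links them, and the split was not tested. In the opposite direction, 95 genes lay above 1 after nitrate and within 0.58 after ammonium. The plot of both ratios places the members in a column under the main cloud of genes, with most of them close to the nitrate limit.

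**Figure D1:**
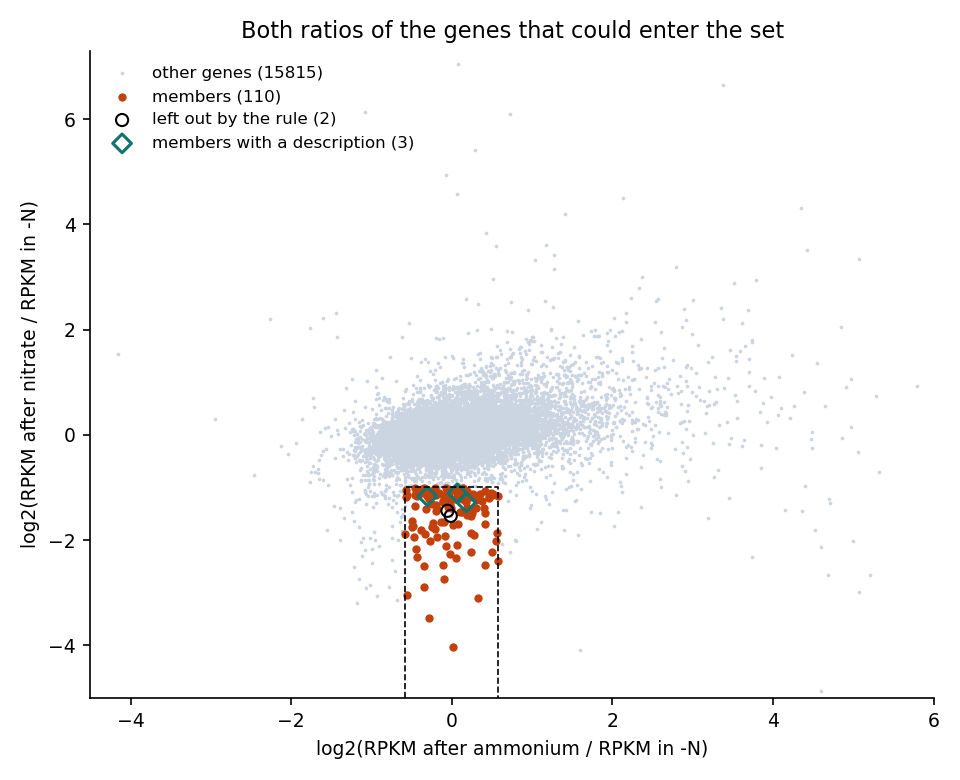
Each point is a gene that could enter the set, with log2(ammonium / -N) on the x axis and log2(nitrate / -N) on the y axis. The dashed lines are the limits of the rule, the 110 members are filled, 2 open circles are the genes left out and 3 diamonds are the members that carry a description. The lowest member lies at -4.03 on the y axis.

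The nitrate log2 ratio of the members ranged from -4.03 to -1.002 with a median of -1.38, beside a median of 0.02 over the 15927 genes. It was below -2 in 20 members, between -2 and -1.5 in 22, and between -1.5 and -1 in 68. The ammonium log2 ratio ranged from -0.58 to 0.57 with a median of -0.04, beside 0.01 over the 15927 genes. Ammonium was above -N in 49 members (44.5%) and below it in 61, beside 5416 (46.2%) above -N among the 11731 genes that met the ammonium limit. The members were thus spread over the whole permitted band on both sides, and 21 of them lay within 0.1 of 0. The log2 ratio of ammonium over nitrate ranged from 0.48 to 4.05 with a median of 1.47, so that in all 110 the nitrate value was the lower of both nitrogen sources, which the rule requires.

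The genes used as markers of cell types in the apex stand in gene lists annotated in the study. PCNA and the fasciata1-like gene came from a group described as lowered by ammonium. The SOMBRERO gene came from groups described as raised by both sources. Their directions therefore follow from a choice on these same libraries and are no independent result. PCNA (Zm00001d018415), a clamp of DNA replication in dividing cells, had 72.96 RPKM after nitrate, 39.1 after ammonium and 78.3 in -N. The fasciata1-like gene (Zm00001d012166), a chromatin assembly factor of dividing cells, had 6.89, 3.52 and 8.13 RPKM in the same order. A SOMBRERO gene (Zm00001d016119), named for a regulator of root cap cells in Arabidopsis, had 4.77 RPKM after nitrate, 2.84 after ammonium and 1.17 in -N. These values lay under the minimum of 5 RPKM set for members. In whole apexes, fewer cells of a type and less RNA per cell cannot be told apart, and the part of the root cap marker's change in the lower values of the members was not tested.

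The members were mostly weakly to moderately expressed. Their median was 4.11 RPKM after nitrate, 11.6 after ammonium and 12.0 in -N, against medians of 17.96, 18.8 and 17.7 RPKM over the 15927 genes. After nitrate, 62 of the 110 were under 5 RPKM and 3 were under 1 RPKM, beside a lower quartile of 9.16 RPKM over the 15927 genes. The rule asks for a nitrate value more than 2-fold under -N and so favours low values after nitrate. The line plot of the members' levels shows the common step between nitrate and both other conditions. Between ammonium and -N the median was nearly flat, while single members moved within the permitted band. Both features follow from the rule.

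**Figure D2:**
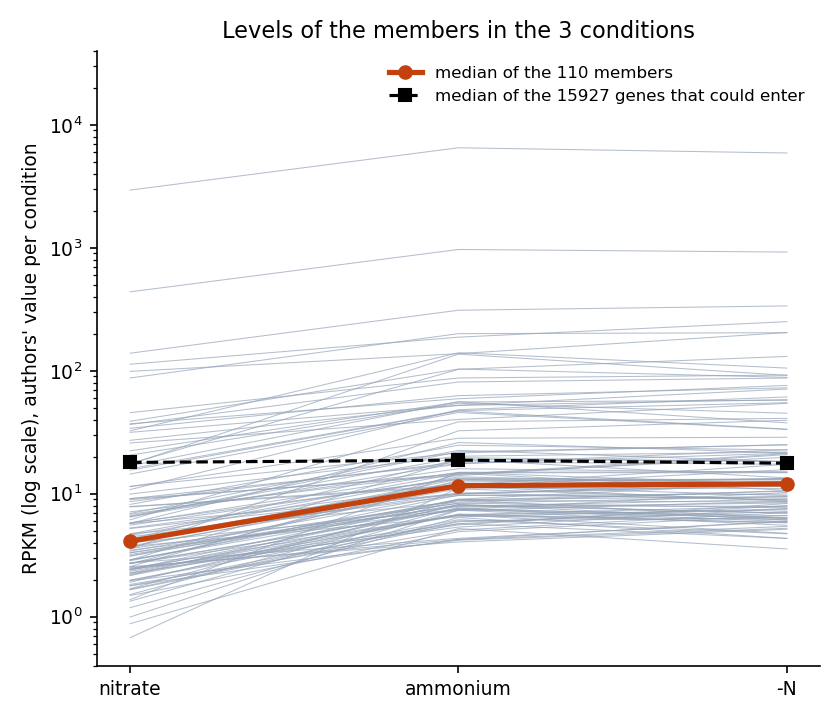
Each thin line is a member, with its RPKM on a log scale after nitrate, after ammonium and in -N. The thick line joins the medians of the 110 members (4.11, 11.6 and 12.0 RPKM) and the dashed line the medians of the 15927 genes that could enter (17.96, 18.8 and 17.7 RPKM).

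The share of genes that were members depended on the level. Where the highest of the 3 values was between 5 and 10 RPKM, 42 of 3407 genes were members (1.23%), and their median nitrate log2 ratio was -1.52. The share was 31 of 4075 (0.761%) between 10 and 20 RPKM, 15 of 4686 (0.320%) between 20 and 50 RPKM, and 22 of 3759 (0.585%) at 50 RPKM and above. In the most abundant class the median nitrate log2 ratio was -1.17, and the lowest ratios of the 4 classes, in rising order of level, were -2.48, -4.03, -3.48 and -2.89. Genes below -1 after nitrate without regard to ammonium had the same order of shares, with 2.32% at 5 to 10 RPKM, 1.57% at 10 to 20 RPKM, 0.960% at 20 to 50 RPKM and 1.25% at 50 RPKM and above. Values at low levels rest on fewer reads, and the part of this in the higher share of members was not tested.

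The member with the lowest nitrate ratio was Zm00001d027511, with 0.675 RPKM after nitrate, 11.1 after ammonium and 11.04 in -N, a log2 ratio of -4.03 after nitrate and 0.01 after ammonium. Its ammonium and -N values hardly differed, while nitrate was 16.4-fold lower than -N. The size of this ratio rests on a low nitrate value, and with 1 RPKM added to both values the log2 ratio was -2.85. Zm00001d041985 had 3.54, 32.5 and 39.6 RPKM after nitrate, after ammonium and in -N (-3.48 after nitrate). Zm00001d031823 had 1.38 RPKM after nitrate, 14.9 after ammonium and 11.9 in -N (-3.10). Zm00001d041987 had 2.56 RPKM after nitrate, 14.4 after ammonium and 21.2 in -N (-3.05), and its ammonium log2 ratio of -0.56 brought it near the lower edge of the band. These 4 were the members below -3.

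Among the next 6, Zm00001d041984 was the most abundant in -N, with 17.6 RPKM after nitrate, 103 after ammonium and 131 in -N (-2.89). Zm00001d049032 had 6.13 RPKM after nitrate, 38.5 after ammonium and 41.0 in -N (-2.74). Zm00001d049129 had 10.8 RPKM after nitrate, 48.2 after ammonium and 61.2 in -N (-2.503). In each of these the ammonium value lay slightly under the -N value. Zm00001d009032, with 1.52, 7.77 and 8.41 RPKM in the same order (-2.47), was of the same kind. The other 2 went to the opposite side, since ammonium lay above -N. Zm00001d019398 had 0.994 RPKM after nitrate, 7.35 after ammonium and 5.54 in -N (-2.48). Zm00001d047893 had 17.4 RPKM after nitrate, 137 after ammonium and 91.7 in -N (-2.40), and with an ammonium log2 ratio of 0.57 it was the member nearest to the upper edge of the band. The files give none of these 10 genes a name or function.

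**Figure D3:**
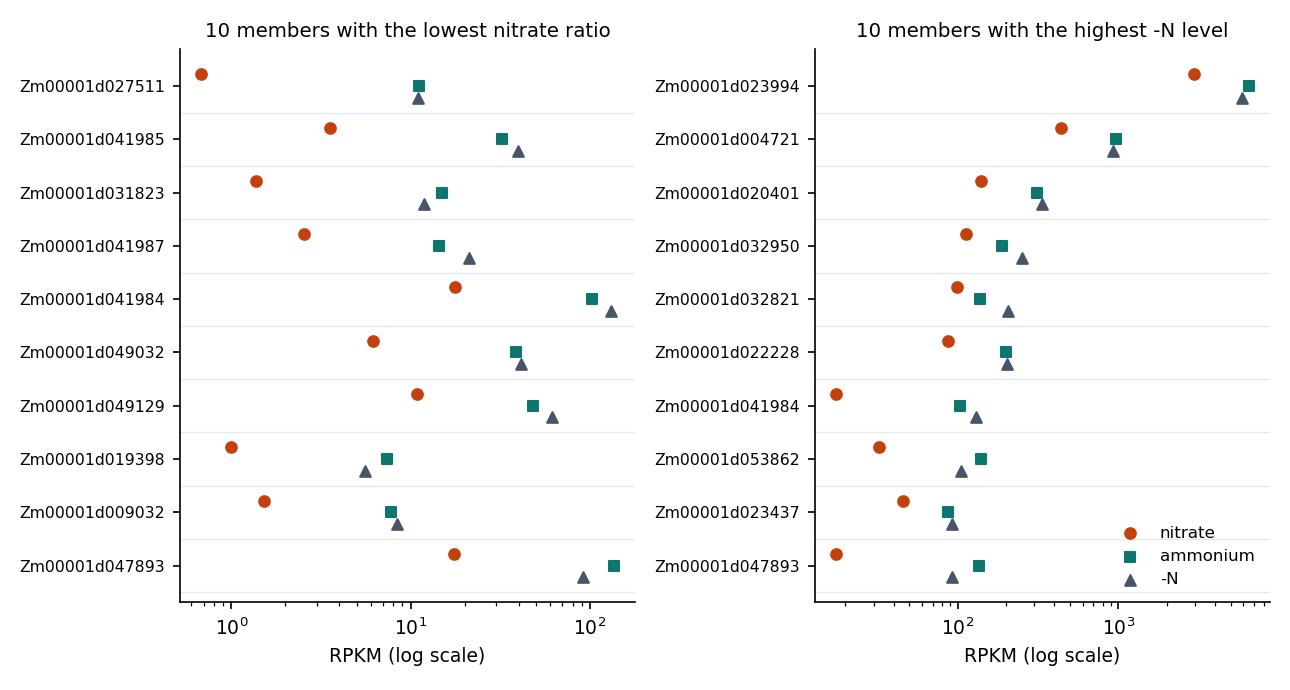
RPKM on a log scale after nitrate (circles), after ammonium (squares) and in -N (triangles) for the 10 members with the lowest nitrate ratio (left) and the 10 members with the highest -N level (right). The nitrate value lies to the left of both others in every gene, and Zm00001d023994 reaches 2945, 6504 and 5898 RPKM.

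A single gene dominated the total of the set. Zm00001d023994 had 2945 RPKM after nitrate, 6504 after ammonium and 5898 in -N, the highest value of all genes that could enter in both ammonium and -N. Its nitrate log2 ratio of -1.002 was the closest of all members to the limit. The 110 members summed to 4626 RPKM after nitrate, 10565 after ammonium and 10087 in -N, which was 0.567%, 1.26% and 1.24% of the sum over all Zm00001d genes. This gene supplied 63.7% of the members' sum after nitrate, 61.6% after ammonium and 58.5% in -N. Without it, the sums were 1682, 4061 and 4190 RPKM in the same order.

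Of the other members most abundant in -N, the 7 not yet named were 2.02- to 3.24-fold lower after nitrate than in -N. Zm00001d004721 had 438 RPKM after nitrate, 969 after ammonium and 923 in -N (-1.07). Zm00001d020401 had 139 RPKM after nitrate, 311 after ammonium and 337 in -N (-1.28), and Zm00001d022228 had 87.4, 200 and 204 RPKM in the same order (-1.22). In these 3 the ammonium log2 ratio was between -0.12 and 0.07. Zm00001d032950 had 113 RPKM after nitrate, 188 after ammonium and 251 in -N (-1.15), and Zm00001d032821 had 98.9, 138 and 205 RPKM in the same order (-1.05). These 2 thus took an intermediate value after ammonium, with ammonium log2 ratios of -0.42 and -0.57. Zm00001d053862 had 32.5 RPKM after nitrate, 140 after ammonium and 105 in -N (-1.69), and Zm00001d023437 had 45.6, 87.4 and 92.2 RPKM in the same order (-1.02).

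A description was found for 3 members, all from the gene lists annotated in the study, which name 249 genes, 212 of them able to enter. The study chose these lists on the same libraries, so they are no independent evidence of a direction. All 3 stood in the list of secondary metabolite biosynthesis. Phenylalanine ammonia lyase7 (Zm00001d017279) belongs to the enzymes that open the phenylpropanoid pathway by releasing ammonium from phenylalanine. It had 2.71 RPKM after nitrate, 7.49 after ammonium and 6.61 in -N, log2 ratios of -1.29 after nitrate and 0.18 after ammonium. Red aleurone1 (Zm00001d017077) encodes flavonoid 3'-hydroxylase, which adds a hydroxyl group to the B ring of flavonoids and so sets the colour of the anthocyanin made. It had 4.71 RPKM after nitrate, 8.57 after ammonium and 10.6 in -N (-1.17 and -0.31). Heme oxygenase3 (Zm00001d046493) belongs to a family that opens the heme ring to biliverdin, from which plants make the chromophore of phytochrome. It had 5.81 RPKM after nitrate, 13.2 after ammonium and 12.6 in -N (-1.11 and 0.07). All 3 were therefore a little over 2-fold lower after nitrate, and after ammonium 2 were above -N and 1 below it.

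Of the 9 genes in that list, 7 could enter the set and all 7 were below -0.58 after nitrate, where 3.91% of the 15927 genes lay. The study drew this list from a cluster of genes that it describes as down-regulated by nitrate. The low nitrate ratios of the list therefore follow from that choice and are no result about the pathway. Their median nitrate log2 ratio was -1.11, and 4 of them were below -1. After ammonium, 1 of the 7 was above 0.58, beside 16.7% of all genes, and none was below -0.58, beside 9.66%. Their median was 0.18. The study describes this cluster as regulated by nitrate only and places genes lowered by both sources in another. The ammonium counts are therefore shaped by the choice too. The fourth gene below -1 was multidrug and toxic compound extrusion1 (Zm00001d035115), a transporter linked to aluminum tolerance, which had 14.1 RPKM after nitrate, 130 after ammonium and 49.1 in -N and was kept out by its ammonium log2 ratio of 1.40. Another 3 genes missed the nitrate limit. An N-benzoyltransferase gene (Zm00001d024763) had 75.1 RPKM after nitrate, 137 after ammonium and 142 in -N (-0.92 and -0.05). A mannitol dehydrogenase gene (Zm00001d045043) had 28.5, 72.2 and 50.4 RPKM (-0.82 and 0.52), and a calcium-transporting ATPase gene (Zm00001d023258) had 9.10, 16.97 and 13.7 RPKM (-0.59 and 0.31). The remaining 2 had the pattern of the members at levels under 5 RPKM. A dirigent protein gene (Zm00001d048814), of a family that guides the coupling of lignans, had 1.21 RPKM after nitrate, 3.30 after ammonium and 4.33 in -N, and an anther-specific proline-rich protein gene (Zm00001d018791) had 0.642, 1.60 and 2.03 RPKM in the same order.

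The study's list of cation transmembrane transport had no member once the 2 transporters had been left out. Of its 9 genes, 8 could enter, and all 8 were below -0.58 after nitrate. The study drew this list too from the cluster described as down-regulated by nitrate, so that this follows from the choice. Their median nitrate log2 ratio was -0.86, and 3 were below -1, beside 1.48% of all genes. After ammonium 2 were above 0.58, beside 16.7% of all genes, and none was below -0.58, beside 9.66%, counts that the choice of the cluster shapes as well. Their median was 0.39. The 2 genes left out had 2.95 RPKM after nitrate, 8.49 after ammonium and 8.57 in -N for the ammonium transporter, and 21.2, 55.7 and 57.8 RPKM for the potassium transporter. Ammonium transporter1 (Zm00001d025831) had 3.91 RPKM after nitrate, 19.4 after ammonium and 8.72 in -N, above the band. A plasma membrane ATPase (Zm00001d002006), the proton pump that energises uptake, had 272, 718 and 506 RPKM (-0.90 and 0.50) and missed the nitrate limit. A protein kinase gene (Zm00001d018799) had 69.0, 187 and 110 RPKM (-0.67 and 0.77), and the other potassium transporters had 6.02, 14.7 and 10.6 RPKM (Zm00001d022485) and 32.5, 44.0 and 49.2 RPKM (Zm00001d020325). The calcium-transporting ATPase stood in both lists. The dot plot of both lists shows that nitrate lay below -N in all of their genes, which the study's choice of the lists implies, while ammonium lay on either side.

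**Figure D4:**
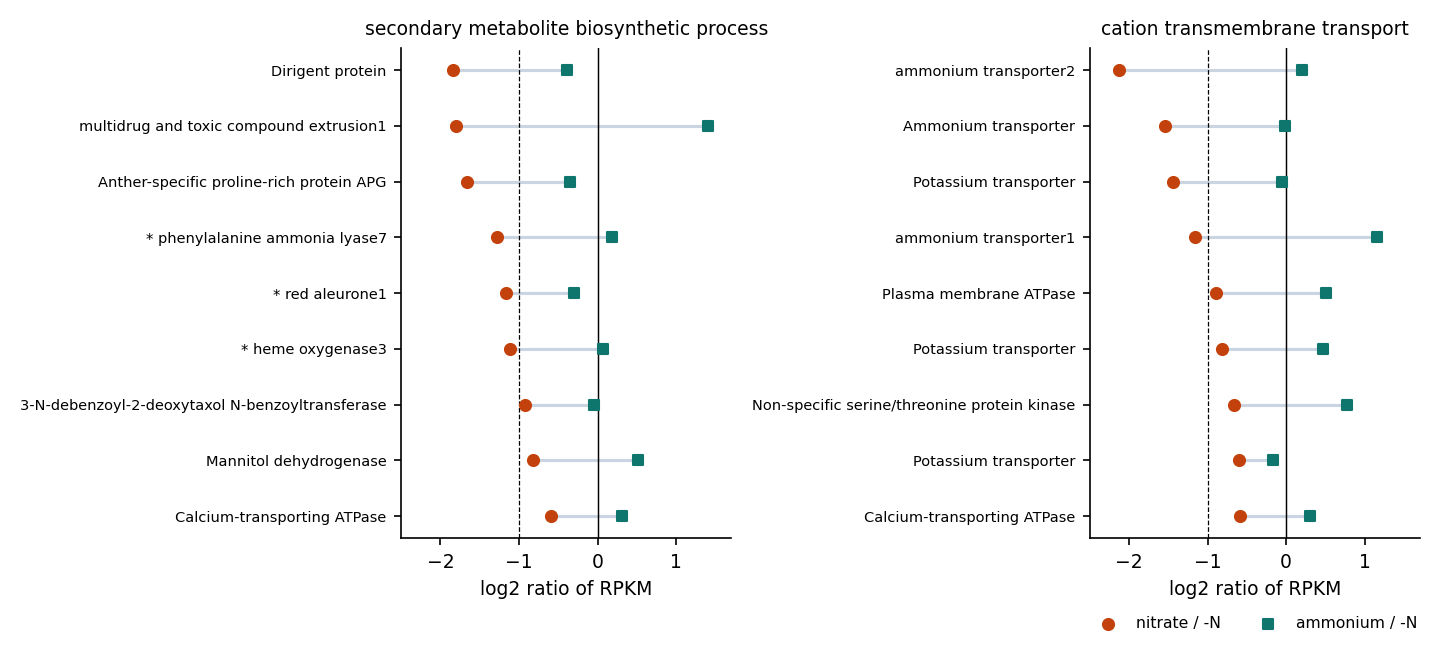
Log2 ratios to -N after nitrate (circles) and after ammonium (squares) for the 9 genes of each of the study's lists for secondary metabolite biosynthesis (left) and cation transmembrane transport (right), including genes under 5 RPKM. Asterisks mark the 3 members, and the dashed line is the nitrate limit of -1.

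The other lists of the study held no member. Apart from nitrogen transport and metabolism, they came from clusters described as raised by nitrate, ammonium or both, or lowered by ammonium or both. Genes so chosen could hardly meet both limits, so that the absence of members says nothing about their functions. The lists of reactive oxygen species and of the cytoskeleton came from the cluster lowered by both sources, which their counts reflect. In the list of reactive oxygen species metabolism, mostly peroxidases, 8 of 10 genes able to enter were below -1 after nitrate, but 9 of the 10 were below -0.58 after ammonium too, with medians of -1.37 and -0.81. All 4 cytoskeleton genes were below -0.58 in both comparisons, and 1 of them was below -1 after nitrate. In the list of nitrogen transport and metabolism 2 of 10 genes were below -1 after nitrate, beside 1.48% of all genes. Another 7 of the 10 were above 0.58, beside 1129 of the 15927. The study selected this list too among genes it called changed in these libraries. The 2 were Zm00001d025831 and Zm00001d034782, both counted above with cation transport. Zm00001d034782 met both limits, so that this list held no member only because the rule left that gene out.

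Member genes often had close identifier numbers. Identifiers in this annotation were in general numbered along the chromosomes, so that close numbers tend to mean neighbouring genes, but positions were not used here. Of the 110 members, 25 had another member within 5 numbers, in 11 runs, 9 of them pairs. Of the 330 genes able to enter within 5 numbers of a member, 25 were members themselves (7.58%), beside 0.691% of all 15927. Among the 305 that were not members, 13 (4.26%) were below -0.58 after nitrate and 5 (1.64%) were below -1. The shares over all genes were 3.91% and 1.48%, but these include the members and are no like comparison. No test was made of these shares. Genes in such runs can be copies of each other, and the authors' division of reads among similar genes makes the values of copies less certain.

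The deepest run was made of Zm00001d041984, Zm00001d041985 and Zm00001d041987, 3 of the 5 members with the lowest nitrate ratio, whose values are given above. The gene between them, Zm00001d041986, was listed at 0.161 RPKM after nitrate, 0.756 after ammonium and 0.355 in -N. The genes outside did not share the pattern. Zm00001d041983 had 8.13 RPKM after nitrate, 8.38 after ammonium and 7.77 in -N, and Zm00001d041988 had 10.3, 6.75 and 10.8 RPKM in the same order. All 3 members of the run also had ammonium values under -N, with log2 ratios from -0.56 to -0.28.

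The longest run held 4 members, Zm00001d022279, Zm00001d022282, Zm00001d022284 and Zm00001d022289, and alternated with 3 genes annotated as peroxidases in the study. Zm00001d022282 was the most abundant of the 4, with 22.3 RPKM after nitrate, 55.7 after ammonium and 57.5 in -N. Zm00001d022279 had 4.58, 13.7 and 12.1 RPKM in the same order, Zm00001d022284 had 3.59, 8.37 and 9.49 RPKM, and Zm00001d022289 had 6.51, 17.5 and 22.8 RPKM. Their nitrate log2 ratios lay between -1.81 and -1.37 and their ammonium log2 ratios between -0.38 and 0.18. The peroxidases between them were lower after both sources. Zm00001d022280 had 5.50 RPKM after nitrate, 19.6 after ammonium and 39.7 in -N, Zm00001d022283 had 6.84, 27.6 and 62.7 RPKM, and Zm00001d022281 had 3.04, 6.07 and 9.54 RPKM. Their ammonium log2 ratios were -1.02, -1.18 and -0.65, outside the band. Zm00001d022286 in the same stretch had 29.3 RPKM after nitrate, 25.4 after ammonium and 30.97 in -N, a nitrate log2 ratio of -0.08.

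**Figure D5:**
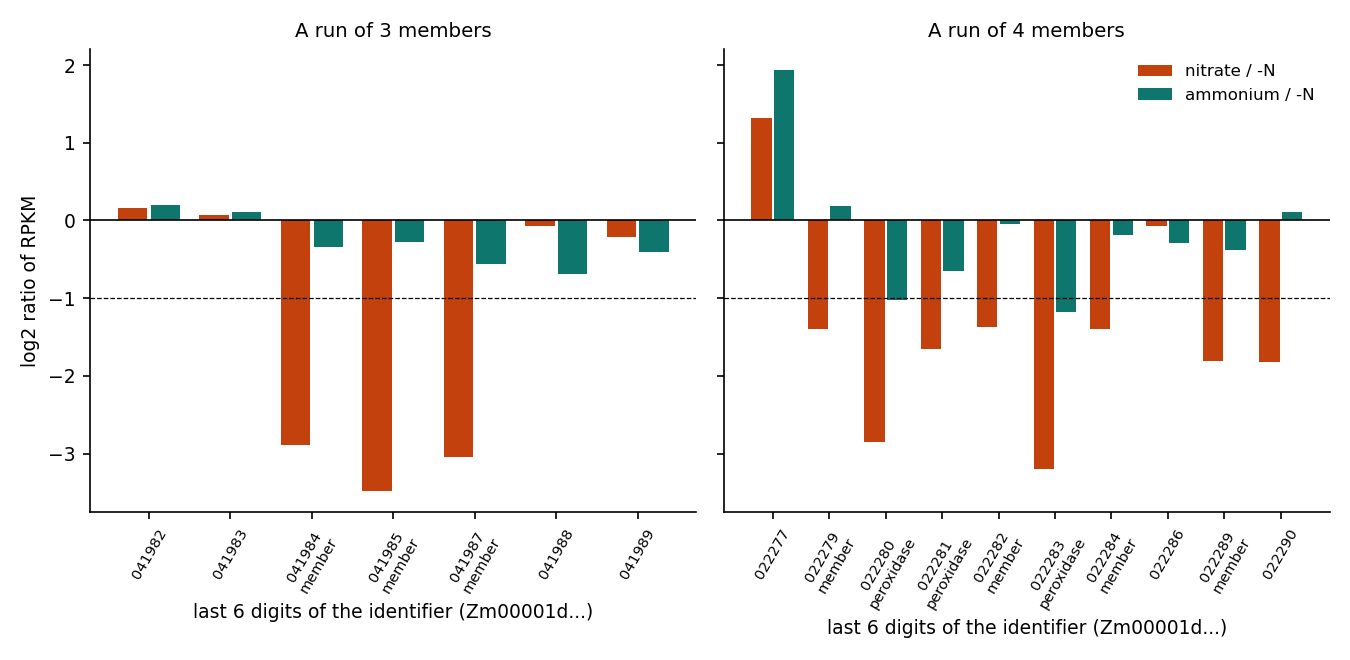
Log2 ratios to -N after nitrate (left bar of each pair) and after ammonium (right bar) for the genes in and beside the runs of 3 and of 4 members, in the order of their identifier numbers, genes under 1 RPKM in all conditions left out. The dashed line is the nitrate limit, which the 3 members on the left pass at -3.48 to -2.89 while the genes beside them lie near 0.

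The pairs included genes of very different levels. Zm00001d020401, at 139 RPKM after nitrate, 311 after ammonium and 337 in -N, stood beside Zm00001d020400, at 3.73, 6.49 and 7.53 RPKM in the same order. Zm00001d031823 stood beside Zm00001d031822, which had 1.49 RPKM after nitrate, 4.91 after ammonium and 6.68 in -N (-2.17 after nitrate). The other 7 pairs had nitrate log2 ratios from -1.95 to -1.03. Some genes annotated in the study also had numbers close to those of members, with patterns that differed from theirs or matched them. Zm00001d009667 was a member with 4.71 RPKM after nitrate, 14.6 after ammonium and 10.7 in -N, and the next lower number, a dihydroflavonol-4-reductase gene (Zm00001d009666) of anthocyanin synthesis, had 3.52, 29.0 and 4.24 RPKM in the same order. The member Zm00001d017247 had 5.27 RPKM after nitrate, 11.7 after ammonium and 13.3 in -N, and ammonium transporter2 (Zm00001d017249), 2 numbers away, had 0.645, 3.23 and 2.81 RPKM. Its log2 ratios of -2.12 after nitrate and 0.20 after ammonium met both limits, and its level under 5 RPKM kept it out of the set.

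The limits cut through a continuous range of values. Just inside the nitrate limit lay Zm00001d023994, Zm00001d048907 (7.82 RPKM after nitrate, 11.4 after ammonium and 15.7 in -N) and Zm00001d016601 (8.63, 18.1 and 17.4 RPKM) at log2 ratios of -1.002 to -1.009. Just outside it lay Zm00001d004559 (6.58, 11.7 and 13.1 RPKM), Zm00001d016582 (3.45, 7.58 and 6.88 RPKM) and Zm00001d040066 (4.08, 5.93 and 8.12 RPKM), all between -0.997 and -0.995. Within 0.1 of the limit there were 16 members and, on its other side, 24 genes that met the ammonium limit. On the upper ammonium edge the members Zm00001d047893, Zm00001d030348 and Zm00001d005629 had log2 ratios of 0.57, while Zm00001d034829, Zm00001d037182 and Zm00001d029151 were outside at 0.59, 0.63 and 0.70. On the lower edge Zm00001d044652, Zm00001d032821 and Zm00001d031749 were members at -0.58 to -0.57, and Zm00001d045845, Zm00001d045888 and Zm00001d022676 were outside at -0.58, -0.61 and -0.61.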

How the data were processed

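Per the labels and the study's methods, polyadenylated RNA libraries of 9 pools of maize root apexes (3 per condition) were sequenced. Reads were trimmed (Trimmomatic 0.33), mapped to B73 RefGen_v4 (TopHat2 2.0.13) and quantified by the authors with Cuffdiff of Cufflinks 2.2.1, with quartile normalization of libraries and a correction that divides reads mapping to several places. The deposited table holds the resulting RPKM, 1 value per gene and condition over the 3 replicates. Depth per value is therefore unknown, and abundant RNAs that change can shift every other value slightly.

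Log2 ratios to -N were computed without a pseudocount (Python 3.11.15, pandas 2.3.3, numpy 2.4.6, figures with matplotlib 3.10.9), and the limits given in the report were applied. The code of the selection was checked on simulated data with planted shifts well beyond the limits and little noise. How the selection behaves near the limits was not checked. No statistical test was made. The members and the gene lists were chosen with earlier results of these data known. Named are all members in the study's annotated lists, the 10 with the lowest nitrate ratio, the 10 with the highest -N level, the 3 genes on each side of each limit and the other genes of the lists for secondary metabolites and cation transport. Genes of the runs of identifier numbers, the cell type markers and the annotated genes beside members were chosen otherwise, the runs and their neighbours after their values were seen. The reference table used here matched no Zm00001d identifier, so the planned keyword groups, promoter motifs, protein features and the leaf and lignin markers were not analysed here. Alternatives were other pseudocounts, minimum levels, scalings and limits.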

Additional observations from a re-analysis of the deposited data

How the results depend on the processing

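The number of members followed the limits. It was 234 with a minimum level of 1 RPKM, 485 with no minimum and 68 with a minimum of 10 RPKM. It was 337 with a nitrate limit of -0.58 and 42 with -1.5, and 63 with an ammonium limit of 0.3 and 166 with 1. Pseudocounts and scalings moved it less, to between 100 and 118, and of the 110 members 92 remained with a pseudocount of 1, 107 with 0.1, and 99 to 109 under the 3 scalings. The scalings shifted all nitrate log2 ratios by -0.05 to 0.02 and all ammonium ones by -0.07 to -0.01. The members' median nitrate log2 ratio ranged from -1.43 to -1.19 and their median ammonium one from -0.11 to -0.04. Of 27 named members, each under 5 alternatives, 126 of 135 nitrate log2 ratios stayed below -1 and 9 did not. These 9 belonged to heme oxygenase3 (-0.99 with a pseudocount of 1) and to Zm00001d023994, Zm00001d023437, Zm00001d048907 and Zm00001d016601, and none reversed. No paired analysis was possible because the table holds 1 value per condition, and no replicate could be left out for the same reason. The precision of a single value cannot be given from the deposited table, and it limits low genes most.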

Other observations

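Some genes that the rule could not take showed the same pattern. Zm00001d010022 was listed at 0 after nitrate, with 9.02 RPKM after ammonium and 13.2 in -N, and has no ratio for nitrate. Among 5354 Zm00001d genes with a highest value between 1 and 5 RPKM, 124 (2.32%) met both limits, with a median nitrate log2 ratio of -1.51. The study annotates 4 of these, ammonium transporter2 (Zm00001d017249), a dirigent protein gene (Zm00001d048814), the anther-specific proline-rich protein gene (Zm00001d018791) and a peroxidase gene (Zm00001d014603, with 0.266 RPKM after nitrate, 0.952 after ammonium and 1.35 in -N).

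Among 246 other identifiers at 5 RPKM or more, 3 (1.22%) met both limits. ENSRNA049456187 had 23.9 RPKM after nitrate, 104 after ammonium and 76.2 in -N, and ENSRNA049477188 had 6.72, 21.2 and 19.7 RPKM in the same order. The microRNA gene zma-MIR396e had 3.81 RPKM after nitrate, 8.32 after ammonium and 7.77 in -N, a nitrate log2 ratio of -1.03. Values of short genes in polyadenylated RNA libraries do not measure the mature small RNA.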
